A study of Rattus norvegicus with 10 samples.

Results

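The 10 genes described here encode proteins by which neutrophils are known: the calcium-binding proteins S100a8 and S100a9, the alpha-defensins Np4 and RatNP-3b, the granule proteins Camp, Mmp8, Mpo and Elane, and the surface receptors Cxcr2 and Csf3r. They were chosen by name, and a probe was counted as a member where its accession on the array was matched to the gene in a RefSeq gene table. A probe was matched for 9 of the 10 genes, 1 probe each, so that the members were 9 of the 30367 probes of the array. No probe was matched to Mpo.

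RNA of whole trigeminal ganglia (TGs), the sensory ganglia that hold the cell bodies of the nerves of the face and mouth, was measured on 1-colour arrays in 5 male Wistar rats with oral ulcerative mucositis (OUM model) and 5 age-matched male naive Wistar rats, 1 array per rat. In the OUM model, a filter paper soaked in 50% acetic acid lay in the lower labial fornix for 30 s under anesthesia, and the TGs were collected on day 2. Naive rats received the anesthesia alone. The TGs of both sides were taken after the rats had been perfused with cold saline through the aorta, and the ulcer itself was not part of these samples.

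Neutrophils carry most of their protein load ready-made. Primary granules, filled while the cell is still a promyelocyte in the bone marrow, hold myeloperoxidase, elastase and the defensins; specific granules, made later, hold the cathelicidin Camp and the collagenase Mmp8, and S100A8 and S100A9 fill the cytosol as a heterodimer. The mRNAs of the granule proteins are made mainly by the maturing cell in the marrow, while receptors such as Cxcr2 and Csf3r guide the mature cell and sustain it. Neutrophils are rare in healthy nerve tissue and enter it from blood vessels after injury or infection.

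Levels are given as log2 signal relative to the 75th percentile of the array, so that a level of 0 equals that percentile. A level compares 1 probe between arrays and not 1 probe with another. Between 70.9% and 77.3% of probes were well above background per array, and at most 1 spot per array was saturated. The arrays lay on 2 slides: slide 1 held 3 OUM and 4 naive arrays, and slide 2 held 2 OUM arrays (OUM 4 and OUM 5) and 1 naive array (naive 4). Markers of neurons and of glia and Schwann cells, 7 of 7 measured genes in each list, were well above background on all 10 arrays. Each array stood for a separate rat, and the p-values below measure the spread between rats.

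Of the members, S100a8, S100a9, Camp, Np4, RatNP-3b and Csf3r were well above background on all 10 arrays, and these 6 were tested among 21983 probes. Mmp8, Elane and Cxcr2 did not pass the filter, which asked that every OUM array, or every naive array, show the probe well above background. The promoters of 4 members whose levels moved together are printed here, from the RefSeq table for the build GRCr8, each as the 250 bases before and the 50 after the start of the gene, read along the gene's strand, and capitals mark the motif matches that were found. S100a9 lies on the minus strand at chr2:178490573-178490872, Np4 at chr16:77199593-77199892 and RatNP-3b at chr16:77248928-77249227, both on the minus strand, and Camp at chr8:118721949-118722248, also on the minus strand.
S100a9: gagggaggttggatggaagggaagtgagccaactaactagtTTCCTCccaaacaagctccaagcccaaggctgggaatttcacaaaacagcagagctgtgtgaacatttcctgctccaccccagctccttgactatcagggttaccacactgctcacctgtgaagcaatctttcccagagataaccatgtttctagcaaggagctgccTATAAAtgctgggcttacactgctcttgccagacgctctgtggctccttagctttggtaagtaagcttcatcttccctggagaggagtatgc
Np4: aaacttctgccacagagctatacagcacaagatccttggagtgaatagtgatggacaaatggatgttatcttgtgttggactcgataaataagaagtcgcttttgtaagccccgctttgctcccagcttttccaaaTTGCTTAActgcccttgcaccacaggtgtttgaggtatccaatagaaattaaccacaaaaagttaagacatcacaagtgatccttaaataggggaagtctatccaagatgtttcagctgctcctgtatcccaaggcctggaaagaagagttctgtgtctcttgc
RatNP-3b: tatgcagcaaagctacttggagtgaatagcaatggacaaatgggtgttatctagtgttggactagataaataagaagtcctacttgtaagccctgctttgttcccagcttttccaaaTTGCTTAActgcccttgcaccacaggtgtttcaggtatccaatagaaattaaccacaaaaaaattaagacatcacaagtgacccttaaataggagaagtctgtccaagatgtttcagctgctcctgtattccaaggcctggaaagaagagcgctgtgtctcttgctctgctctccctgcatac
Camp: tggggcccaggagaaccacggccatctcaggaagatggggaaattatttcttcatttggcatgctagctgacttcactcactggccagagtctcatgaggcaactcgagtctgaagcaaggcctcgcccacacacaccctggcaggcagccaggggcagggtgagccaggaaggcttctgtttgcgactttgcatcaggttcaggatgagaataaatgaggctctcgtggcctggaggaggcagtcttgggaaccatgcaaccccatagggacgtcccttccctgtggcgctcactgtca
Both strands were searched for a TATA box (TATAAA, present in 14.2% of the 33469 promoters of the table), the core of a PU.1 site (GAGGAA, 27.6%) and a C/EBP motif (TTGCNNAA, 10.6%). No matches overlapped. PU.1 and C/EBP proteins are transcription factors of myeloid cells. The S100a9 window held a TATA box that began at base -42 from the start and a PU.1 core on the reverse strand at -209. Np4 and RatNP-3b each held 1 C/EBP motif, at -114 and -133, and the Camp window held none of the 3 motifs. The Np4 and RatNP-3b windows were 81.19% identical over their alignment, whereas the other pairs of these 4 windows were 43.33 to 46.96% identical. A match is a run of letters and not a shown binding site.

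S100A8 and S100A9, the 2 subunits of calprotectin, bind calcium and zinc and make up a large share of the neutrophil cytosol. The S100a8 level was -1.28, 0.10, -2.24, -0.87 and -3.39 on the OUM arrays 1 to 5, against 0.98, -0.40, -1.72, -3.11 and -2.02 on the naive arrays 1 to 5. The groups overlapped over most of their ranges, with the highest value on a naive array and the lowest on an OUM array. The mean was -1.54 ± 1.33 in OUM TGs and -1.25 ± 1.58 in naive TGs (SD, n = 5 each). The log2 difference, OUM minus naive, was -0.28 (SE 0.82), with a limma adjusted p of 0.940 and an exact permutation p of 0.722. Its 95% interval, -2.11 to 1.55, spanned folds of 0.231 to 2.93.

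For S100a9, the OUM arrays 1 to 5 gave levels of -0.62, 0.72, -1.76, -0.35 and -3.05, against 1.63, 0.29, -1.08, -2.77 and -1.15 on the naive arrays. Here too naive 1 was highest, followed by OUM 2, and OUM 5 was lowest, followed by naive 4. The group means were -1.01 ± 1.44 in OUM TGs and -0.62 ± 1.66 in naive TGs (SD, n = 5 each), a log2 difference of -0.40 (SE 0.87, limma adjusted p = 0.919, exact permutation p = 0.690).

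Np4 and RatNP-3b are alpha-defensins, small cationic peptides of the primary granules that damage microbial membranes. Np4 had levels of -2.43, 0.25, -2.90, -1.05 and -4.36 on the OUM arrays 1 to 5, against 0.92, -0.45, -1.76, -3.48 and -2.65 on the naive arrays. RatNP-3b had levels of -2.70, -0.28, -3.24, -1.56 and -4.84 on the OUM arrays, against 0.58, -0.78, -2.07, -4.06 and -2.85 on the naive arrays. In both genes the 2 groups overlapped fully in the middle of the range, and the order of the 10 arrays was the same for the pair. The log2 difference was -0.61 (SE 0.99) for Np4 and -0.68 (SE 0.99) for RatNP-3b, with limma adjusted p of 0.887 and 0.870 and exact permutation p of 0.595 and 0.548. Alpha-defensin genes are a family of closely similar copies, the probe sequences were not used here, and signal shared between copies cannot be told apart.

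Camp, the precursor of the antimicrobial cathelicidin peptide of the specific granules, had levels of -2.54, -1.01, -3.03, -2.07 and -3.95 on the OUM arrays 1 to 5, against -0.13, -1.41, -2.81, -3.76 and -2.80 on the naive arrays. Naive 1 was again highest and OUM 5 lowest. The log2 difference was -0.34 (SE 0.71, limma adjusted p = 0.915, exact permutation p = 0.690).

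Csf3r, the receptor for the granulocyte growth factor G-CSF, was dim but well above background on every array. Its levels were -6.36, -5.82, -5.87, -5.75 and -6.31 on the OUM arrays 1 to 5, against -5.85, -5.96, -6.06, -6.49 and -6.11 on the naive arrays. The groups overlapped, and the spread was far smaller than that of the granule genes. The mean was -6.02 ± 0.29 in OUM TGs and -6.09 ± 0.24 in naive TGs (SD, n = 5 each), a log2 difference of 0.07 (SE 0.15, limma adjusted p = 0.919, exact permutation p = 0.706). The 95% interval of the fold, 0.829 to 1.33, was the narrowest of the 6.

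**Figure D1:**
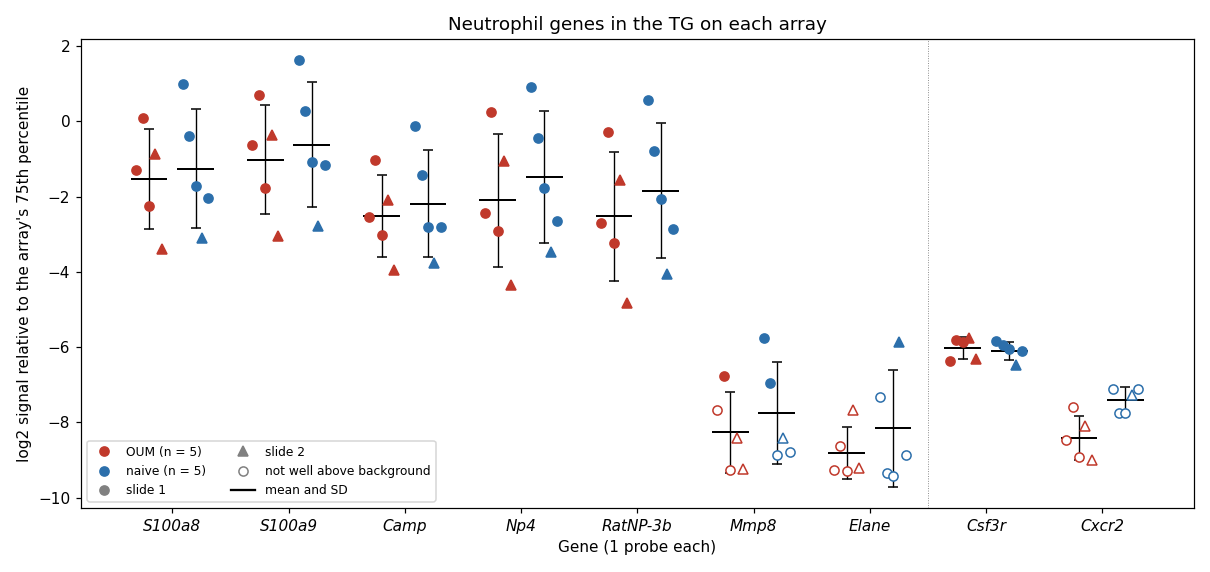
Log2 signal of each gene relative to the 75th percentile of the array (y axis), with 1 point per array, OUM (red, n = 5) left of naive (blue, n = 5), triangles for slide 2, open points where the probe was not well above background, and bars for mean and SD. The groups overlapped in every gene: naive 1 was highest and OUM 5 lowest for the 5 granule and cytosolic genes well above background, and Csf3r varied by 0.73 in all.

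The other 3 members were mostly near background. Mmp8, the neutrophil collagenase, was well above background on OUM 2, at -6.77, and on naive 1 and naive 2, at -5.76 and -6.97, the arrays on which the other granule genes were highest. Its other 7 readings, -7.66 to -9.27 on OUM arrays and -8.41 to -8.88 on naive arrays, were not well above background. Elane, the neutrophil elastase of the primary granules, was well above background on 0 of 5 OUM arrays and 1 of 5 naive arrays. That array was naive 4, with a level of -5.86, and naive 4 was among the lowest for the 5 granule genes above, so Elane did not follow them there. This is 1 reading of a probe with 1 spot, on the array with the smallest share of probes well above background (70.9%). Cxcr2, the receptor for the chemokines that draw neutrophils into tissue, was not well above background on any of the 10 arrays. Its readings were -8.47, -7.59, -8.92, -8.09 and -8.99 on the OUM arrays and -7.11, -7.74, -7.75, -7.26 and -7.11 on the naive arrays, and no fold is given between readings at background. The lowest signal that was called well above background lay between -8.52 and -7.76 on the OUM arrays and between -8.32 and -6.93 on the naive arrays. On the arrays that did not show these 3 probes well above background, lower levels were not detectable.

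No difference of a member between OUM and naive TGs passed a test: 0 of 6 passed an adjusted p of 0.05 in limma, against 0.0091% of the 21983 probes, and 0 of 6 had an unadjusted p under 0.05, against 8.89%. The groups did not overlap in 0 of the 6, against 1.8% of all tested probes. The median log2 difference of the 6 was -0.37, against -0.01 over all tested probes. In whole tissue, fewer cells of a type and less RNA per cell cannot be told apart.

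Group and slide were not balanced, and the sign of the differences was not the same on both slides. Within slide 1 (3 OUM and 4 naive arrays), the log2 difference was -0.35 for S100a8, -0.48 for S100a9, -0.71 for Np4, -0.79 for RatNP-3b, -0.40 for Camp and -0.02 for Csf3r. Within slide 2, whose only naive array was naive 4, 1 of the 2 lowest rats for the 5 granule genes, it was 0.98, 1.07, 0.77, 0.86, 0.75 and 0.46 for the same genes. On that slide the slide and this rat cannot be told apart. With slide as a block in the fit, it was 0.02, -0.04, -0.29, -0.33, -0.08 and 0.11, and only S100a8 changed sign. Without naive 1, S100a8, S100a9 and Camp stood at 0.28, 0.17 and 0.18, and without OUM 5 at 0.18, 0.11 and 0.02. Csf3r ran from -0.028 to 0.15 with 1 array left out. So for these 3 genes and Csf3r the direction rested on single rats. None of the 6 had an adjusted limma p under 0.05 in these fits. With 1 naive array on slide 2, only the size of its differences is given here.

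**Figure D2:**
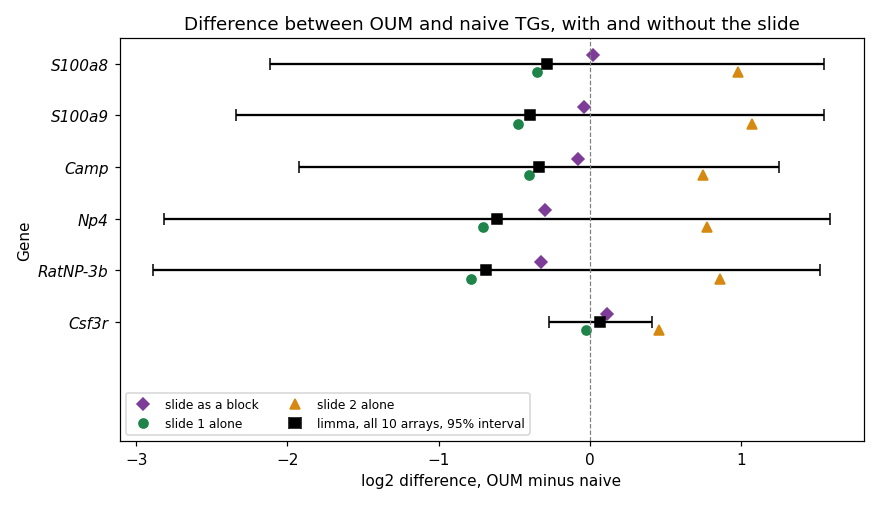
Log2 difference, OUM minus naive (x axis), of the 6 tested genes (rows): squares and bars are the limma estimate over all 10 arrays with its 95% interval, diamonds the fit with slide as a block, circles slide 1 alone (3 OUM, 4 naive) and triangles slide 2 alone (2 OUM, 1 naive). Every interval crosses 0, and the 5 granule genes lie below 0 on slide 1 (-0.35 to -0.79) and above 0 on slide 2 (0.75 to 1.07).

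The 5 granule and cytosolic genes varied widely from rat to rat. From the lowest to the highest of the 10 arrays, S100a8 spanned 20.7-fold, S100a9 25.6-fold, Camp 14.1-fold, Np4 38.8-fold and RatNP-3b 42.5-fold. The median tested probe spanned 1.33-fold, and 90.2% of tested probes spanned less than 1 log2 unit. Only 0.073% to 0.300% of tested probes had a wider range than these genes. Csf3r spanned 1.66-fold, and 19.6% of tested probes spanned more.

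The spread was present in both groups. S100a9 spanned 13.6-fold among the 5 OUM rats and 21.2-fold among the 5 naive rats, and Np4 spanned 24.4-fold among OUM and 21.1-fold among naive rats. Camp spanned 7.65-fold among OUM and 12.4-fold among naive rats. The within-group SD was 1.27 to 1.76 log2 units for the 5 genes and 0.27 for Csf3r, where the median over tested probes was 0.13. With such a spread, the 95% interval for RatNP-3b ran from a fold of 0.135 to 2.87 and that for Camp from 0.264 to 2.38.

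**Figure D3:**
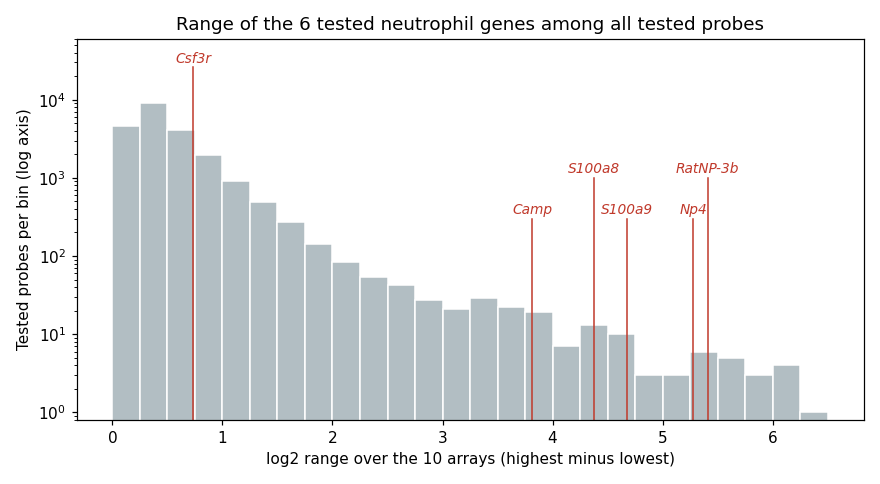
Number of tested probes (y axis, log scale) by their log2 range over the 10 arrays (x axis, highest minus lowest), with the 6 tested members marked by red lines. Csf3r (0.73) lies in the body of the distribution, whose median is 0.41, and the 5 granule and cytosolic genes lie between 3.82 and 5.41.

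The same rats were high or low for all 5 genes. Naive 1 ranked highest, followed by OUM 2 and naive 2, in each of them, and OUM 3, naive 4 and OUM 5 came last, in that order. OUM 4 came next after naive 2, and OUM 1, naive 3 and naive 5 filled ranks 5 to 7. Over the 10 pairs of these 5 genes, Pearson's r across the 10 arrays was 0.970 to 0.997 and Spearman's rho was 0.964 to 1. Permutation tests with 100000 resamples gave p of 1e-05 to 2e-05 for r, where 1e-05 is the smallest they can give, and adjusted p of at most 3e-05 over the 15 pairs computed among the 6 members. For rho the permutation p was 1e-05 to 9e-05, with adjusted p of at most 0.000135.

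The relation held without the extreme arrays, within a slide and within the groups. Without the 2 arrays farthest from the median, naive 1 with OUM 5 or with OUM 2, the 10 pairs had r of 0.934 to 0.995. Within slide 1 (7 arrays) r was 0.961 to 0.999, with exact permutation p of 0.000198 to 0.00159. Slide 2 held 3 arrays, too few for a value. After each array's value was taken relative to its own group mean, r was 0.971 to 0.997.

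S100a8 and S100a9, whose proteins form 1 complex, had r = 0.995 and the same order of arrays (rho = 1). Their log2 difference from each other varied over the arrays with an SD of only 0.16, while each gene alone had an SD of 1.39 and 1.48. Np4 and RatNP-3b, the defensin pair, had r = 0.997 and an SD of their difference of 0.13. Signal shared between these copies was not tested. Across the pairs the slopes were not all 1: per log2 unit of S100a9, Np4 moved by 1.11, RatNP-3b by 1.13 and Camp by 0.80.

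Csf3r followed the same rats more loosely. Its r with the 5 genes was 0.686 to 0.732 (permutation p 0.0179 to 0.0306, adjusted p 0.0231 to 0.0306 over the 15 pairs) and its rho was 0.661 to 0.709 (permutation p 0.0265 to 0.0448, adjusted 0.0344 to 0.0448). Without the 2 farthest arrays r was 0.614 to 0.688. Within slide 1 it was 0.419 to 0.596, and exact permutation p of 0.153 to 0.351 over those 7 arrays left the relation unresolved. Its slope was shallow, 0.12 log2 units per log2 unit of S100a9.

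**Figure D4:**
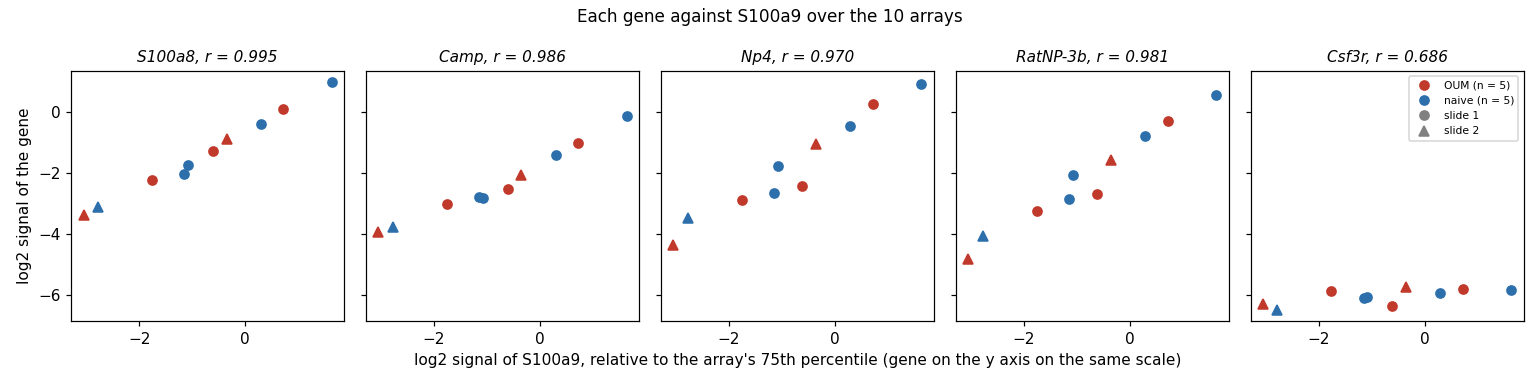
Log2 signal of 5 members (y axis, 1 panel each) against that of S100a9 (x axis) on the 10 arrays, OUM in red and naive in blue (n = 5 each), triangles for slide 2. S100a8, Camp, Np4 and RatNP-3b lie along straight lines with OUM and naive arrays mixed (r = 0.995, 0.986, 0.970 and 0.981), and Csf3r rises only slightly (r = 0.686).

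Other genes of neutrophils were counted over 7 lists with 86 genes in all, members included. Of them 73 had a probe and 45 were tested. Higher in OUM TGs at an unadjusted limma p under 0.05 were 3 of the 45 (Fcgr3a, Ptafr and Cebpb), and 0 were lower, where 3.91% and 4.99% of all tested probes were. The split between higher and lower calls depended on scaling: 43.9% of all such calls were higher here, 55.3% after quantile normalization and 62.1% after a median shift. The count of 3 higher was 9 without OUM 1, 6 without naive 3, 5 without OUM 2, 6 after quantile normalization, 7 after a median shift, 2 on slide 1 alone and 10 on slide 2 alone. None of the 45 passed an adjusted p of 0.05, and the median log2 difference was 0.06, against -0.01 over all probes.

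Among 7 tested receptors, 2 were higher at that unadjusted threshold. Fcgr3a, a low-affinity receptor for IgG that macrophages also carry, had levels of -4.55, -4.02, -3.53, -3.91 and -4.46 on the OUM arrays, against -4.61, -4.68, -4.44, -4.56 and -4.69 on the naive arrays. Its log2 difference was 0.50 (SE 0.17), with an exact permutation p of 0.0318 and a limma adjusted p of 0.487. Only OUM 1 and OUM 5 lay within the naive range. Ptafr, the receptor for platelet-activating factor, averaged -1.80 in OUM and -2.05 in naive TGs, a difference of 0.24 (SE 0.09, exact permutation p = 0.0318, limma adjusted p = 0.501). Of the markers of monocytes and macrophages, 7 of 8 tested had a positive difference, with a median of 0.13, and none passed an unadjusted p of 0.05. Their log2 summed level was 3.71 to 4.16 in OUM against 3.61 to 3.82 in naive TGs. The bright Lyz2, which is also in the primary granule list, dominates this sum, with means of 3.60 in OUM and 3.40 in naive TGs. Of the mast cell markers 3 of 4 tested had a positive difference, with a median of 0.37 and a log2 summed level of -2.32 to -2.07 in OUM against -2.49 to -2.13 in naive TGs, and 1 of the 4, the tryptase Tpsab1 (0.48, SE 0.21, exact permutation p = 0.0873, limma adjusted p over 0.05), had an unadjusted limma p under 0.05. The part of either cell type in the receptor values was not tested. Cxcr1, Ltb4r, Csf2rb and Trem1 were, like Cxcr2, well above background on 0 of 10 arrays.

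In the oxidase and transcription factor list, 1 of 7 tested genes was higher: Cebpb, a C/EBP factor induced in acute inflammation, averaged -0.63 ± 0.05 in OUM and -0.82 ± 0.14 in naive TGs (SD, n = 5 each), a difference of 0.19 (SE 0.07, exact permutation p = 0.0318, limma adjusted p = 0.493). Cebpa, which acts in early granulocyte precursors, had a difference of -0.38 (SE 0.57), and Padi4, which citrullinates histones, one of -0.28 (SE 0.25). In the primary granule list, 0 of 5 tested genes passed: Lyz2, the lysozyme of macrophages and neutrophils, stood at 3.60 in OUM and 3.40 in naive TGs, and Serpinb1a, an inhibitor of neutrophil proteases, at 4.79 and 4.89. In the specific and gelatinase granule list, 0 of 12 passed, with Itgb2, the beta-2 integrin chain, at -4.61 in OUM and -4.96 in naive TGs and Chi3l1, a chitinase-like protein, at -3.18 in OUM and -3.53 in naive TGs. Ltf and Olfm4 of this list were well above background on 0 of 10 arrays.

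Of the defensins, 5 of 9 measured genes were tested and 0 passed. Besides the RatNP-3b value above, Defa8 had the widest difference, 0.67 (SE 0.59), with opposite sign. Defa8 was well above background on 5 of 5 OUM arrays and 3 of 5 naive arrays. It thus entered the test only through the OUM group, where it was higher, and its naive mean includes readings at background. Chemoattractants and growth factors gave 0 of 5, among them Cxcl1, a ligand of Cxcr2, at -6.51 in OUM and -6.98 in naive TGs (well above background on 9 arrays), and Il1b at -4.96 in OUM and -4.57 in naive TGs. The endothelial adhesion molecules gave 0 of 4 tested, with log2 differences of 0.18 (SE 0.09) for Icam1 and 0.16 (SE 0.07) for Icam2, while Sele and Selp, the selectins on which neutrophils roll, were well above background on 0 of 10 arrays.

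Some genes of these lists shared the pattern of the members across rats. Of 34 list genes that are not members and were well above background on all 10 arrays, 7 (20.6%) had r over 0.7 with S100a9, against 0.98% of the 20993 probes detected on all arrays. The 7 were Defa5, Hp, Lcn2 (a lipocalin that binds bacterial iron carriers), Pglyrp1 (which recognises bacterial cell walls), Padi4, and Ncf4 and Rac2, both of the phagocyte oxidase. No such gene came from the primary granule, receptor, chemoattractant or adhesion lists. The median r of the 34 was 0.167, against -0.001 over the 20993 probes. Cxcl12 of the chemoattractant list ran opposite to S100a9 (r = -0.816). Among genes well above background on fewer arrays, r with S100a9 was 0.941 for Ngp, a granule protein of the cathelicidin family (8 arrays), 0.878 for Defa11 (6 arrays), 0.861 for Cebpe, a C/EBP factor of late granulocyte precursors (3 arrays), and 0.897 for Mmp9, the gelatinase (2 arrays), readings at background included. Others did not follow S100a9, among them Cebpa (r = -0.672, 9 arrays), Defa8 (-0.176, 8 arrays) and Defa9 (0.001, 6 arrays). Prtn3, the primary granule proteinase 3, was well above background on all arrays but spanned only 0.47 log2 units, with r = 0.481.

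Over all genes with a symbol and a signal well above background on all 10 arrays (13727 probes), the 10 most like the mean z-score of the 6 members were Defa5 (r = 0.983), Spib (0.972), Fcnb (0.970), Retnlg (0.952), Hp (0.949), Pou2af1 (0.942), Prg2 (0.920), Spn (0.916), Plbd1 (0.911) and Padi4 (0.910). The score holds 6 genes of which 5 nearly repeat each other, and 12 probes in all had r over 0.9, the median being 0.01. Defa5 is a further alpha-defensin, Fcnb a ficolin, a lectin of innate immunity made by granulocyte precursors, Retnlg a resistin-like protein of bone marrow and neutrophils, and Hp haptoglobin, which binds free hemoglobin. Prg2 encodes the major basic protein of eosinophils, and Spn the leukocyte surface protein CD43. Spib and Pou2af1 encode transcription regulators of B cells.

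Defa5 repeated the defensin values, with -2.48, 0.11, -3.29, -1.37 and -4.48 on the OUM arrays and 0.80, -0.61, -1.89, -3.68 and -2.85 on the naive arrays. Spib gave -5.01, -3.94, -5.77, -4.67 and -6.02 on the OUM arrays and -3.59, -4.05, -5.03, -6.16 and -5.25 on the naive arrays. Prg2 gave -2.01, -1.13, -2.21, -2.01 and -2.90 on the OUM arrays and 0.42, -1.15, -2.03, -2.75 and -2.07 on the naive arrays. As with the 5 granule and cytosolic members, though not Csf3r, naive 1 was the highest array for each of these 3 genes. The lowest was OUM 5 or naive 4. The limma adjusted p of the 10 genes for OUM against naive TGs was 0.763 to 0.978.

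**Figure D5:**
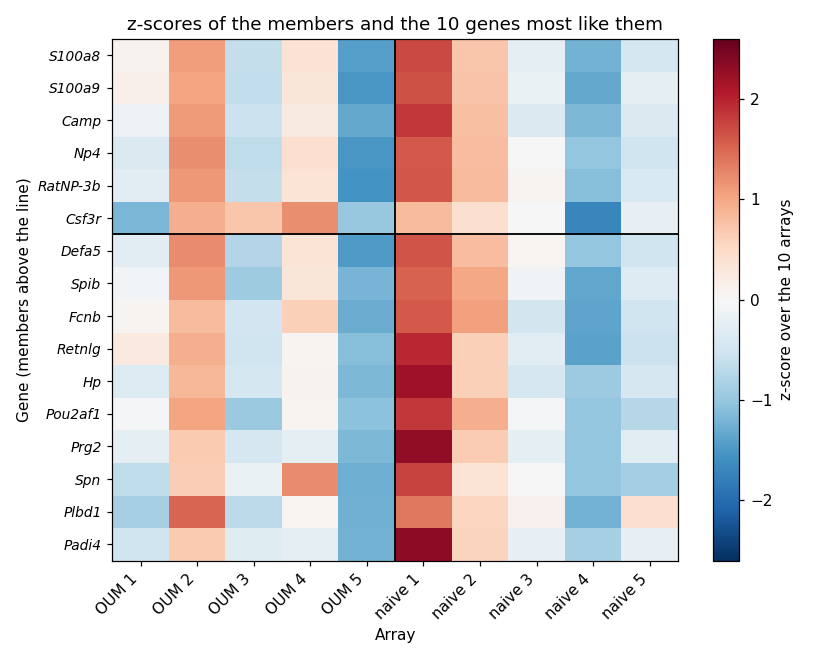
Z-scores over the 10 arrays (colour) of the 6 members (above the line) and the 10 genes most like their mean (below it), in rows, with OUM arrays left of naive arrays in columns. Naive 1 and OUM 2 are red and OUM 5 and naive 4 blue in nearly every row, and the boundary between the groups does not show.

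Markers of 12 other cell types and tissues were set against S100a9 in the same way, as the mean log2 level of each list's genes detected on all arrays. The highest r over the 10 arrays was 0.673 for bone and cartilage (rho 0.612, permutation p = 0.0353 for r and 0.0669 for rho), which did not pass adjustment over the 12 lists (0.424 for r). It was 0.604 within slide 1 and 0.368 without the 2 farthest arrays. In this list 5 of 6 measured genes were well above background on all 10 arrays, and Acan was on 0. Those 5 genes went both ways: r with S100a9 was 0.754 for Bglap (osteocalcin) and 0.679 for Col2a1 (a cartilage collagen), 0.168 for Ibsp, -0.12 for Spp1 and -0.75 for Sp7. The log2 of the summed level of the list was 3.99 to 4.24 in OUM and 4.07 to 4.26 in naive TGs, a sum that the bright Spp1 dominates, while Bglap alone spanned 1.26 log2 units.

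The erythroid list, markers of red cells and their precursors, gave different values over all arrays and within slide 1, and the difference between slides was not tested. Over all 10 arrays it had r = 0.229 with S100a9 (rho 0.261, permutation p = 0.519 and 0.470), and within slide 1 it had r = 0.915 (rho 0.821), with exact permutation p of 0.00595 and 0.0341 over 7 arrays, 0.0714 for r after adjustment over the 12 lists, so r did not pass adjustment. Its genes went different ways over the 10 arrays: r with S100a9 was 0.704 for Slc4a1 (the anion exchanger of red cells), 0.507 for Ahsp (which binds free alpha-globin) and 0.810 for Rhag (a red cell membrane protein, well above background on 9 arrays), and -0.08 to 0.161 for the 5 globin genes and Alas2. On slide 2, the mean erythroid level was 2.12 on OUM 4 and 2.56 on OUM 5, against 2.63 on naive 4, although OUM 5 and naive 4 had the lowest S100a9. All 11 measured genes of the list were well above background on some arrays and 8 on all 10. In this list 10 of 10 tested genes had a negative OUM minus naive difference, as 5 of the 6 members had, with a median of -0.42 and 0 past an unadjusted p of 0.05, and the log2 of its summed level was 7.70 to 8.42 in OUM against 7.94 to 8.47 in naive TGs.

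The remaining 10 lists had r of -0.255 to 0.525 over all arrays and -0.293 to 0.651 within slide 1, with adjusted permutation p of 0.441 or more. Among them were platelets (r = 0.075, and 0.428 within slide 1), monocytes and macrophages (0.198 and 0.388), lymphocytes (0.211 and 0.651), dividing cells (0.525 and 0.529) and neurons (0.122 and -0.293). The pituitary list ranged over 5.56 log2 units between arrays, in the range of the defensins, with r = 0.391 (0.479 within slide 1), and 5 of 5 tested genes of it had a positive OUM minus naive difference, with a median of 1.17 and 0 past an unadjusted limma p of 0.05. The part of red cells, bone or other tissue in the neutrophil values was not tested.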

How the data were processed

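TG RNA of 5 OUM model rats and 5 naive rats was hybridised to 1-colour Agilent SurePrint G3 Rat GE arrays, 1 per rat. The authors quantified the scans with Agilent Feature Extraction 10.7.1.1, and the deposited intensity of a spot is its processed signal after background subtraction and detrending. A value table, which the authors made with GeneSpring GX, holds a ratio, the processed signal of a spot over a constant of its array, on a linear scale. The constants were 1902 to 2156, where the 75th percentiles taken here were 2620 to 2949. Its log2 values had r of 0.9995 or more with the scanner signals and its column medians were 0.114 to 0.120. It was used as an alternative. Its centring is per array, and no log was taken in it.

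From the scanner files, control spots and spots marked as non-uniform or population outliers were left out. Signals of the spots of a probe were averaged on the linear scale. The log2 of each array's 75th percentile was then subtracted from the log2 of that mean. Accessions were matched to a RefSeq table of GRCr8, which named 18430 of 30367 probes and left 11937 unnamed. This table served for names, and only the printed promoters carry coordinates. Groups came from the sample titles. A probe entered the test when every OUM array, or every naive array, marked it as well above background. OUM and naive arrays were compared by limma 3.58.1, in R 4.3.3 (lmFit and eBayes, two-sided, Benjamini-Hochberg adjustment over all 21983 tested probes, threshold 0.05), and single probes also by a two-sided exact permutation test over the 252 assignments of arrays, whose smallest p is 0.00794. The fit was tested on simulated data. Pearson's r and Spearman's rho across arrays were tested two-sided with 100000 resamples, or exactly within slide 1, in Python 3.11.15 with scipy 1.17.1. The number of arrays limits the precision.

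Where a gene other than a member had several probes, the brightest stood for it. Genes named in the text are the members, the genes of each neutrophil list at an unadjusted p under 0.05 or else the 2 with the widest difference, and the 10 most like the members' mean z-score. Others are named for being undetected, for following S100a9 or not doing so, or as cell type markers. They were picked after their values were seen. The members, the lists and the rules were chosen with earlier results of these data known. Alternatives covered normalization, background correction, filters, outlier spots, slide, replicate numbers, the test and each array left out.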

Additional observations from a re-analysis of the deposited data

Results flagged for a closer look

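In the OUM group, the Cebpa level on OUM 1 was -7.44, below the other 4 OUM arrays, which ran from -6.64 to -6.38. The gap to the nearest array was 0.758 of the group's whole range, above Dixon's critical value of 0.71 for 5 arrays. On 9 of the 10 arrays Cebpa exceeded background clearly, the exception being naive 1. A total of 64 groups of 5 arrays were examined in this way, the OUM and the naive arrays of each member, of the list genes that the naming rule gives and of the 10 genes most like the members, and chance flags about 1 in 20.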

How the results depend on the processing

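The log2 differences of the 6 tested members were computed under 27 alternatives. Of 162 such values 148 kept the sign and 14 were reversed, and none passed an adjusted p of 0.05 (the smallest was 0.582). Reversed were S100a8 with slide as a block (0.022), Csf3r on slide 1 alone (-0.023) and, on slide 2 alone, S100a8 (0.98), S100a9 (1.07), Np4 (0.77), RatNP-3b (0.86) and Camp (0.75). Leaving out each array in turn gave -0.75 to 0.28 for S100a8, -0.93 to 0.17 for S100a9, -1.20 to -0.01 for Np4, -1.24 to -0.08 for RatNP-3b, -0.73 to 0.18 for Camp and -0.028 to 0.15 for Csf3r. Slide 2 held 1 naive array, which was assumed to vary like the OUM arrays.

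The count of all probes past an adjusted p of 0.05, 2 in the text, was 0 after quantile normalization, with the 75th percentile over probes detected on all arrays, after normexp (offset 50, on the median spot signal), with no filter on dim probes, with the filter for positive and significant signals, with the replicate block, under the methods' t-test and in the authors' value table, 1 with array weights and with an intensity trend and robust prior, 5 after a median shift and with slide as a block, 7 on slide 1 alone, 501 on slide 2 alone and 0 to 1 with 1 array left out. The cause was not tested. Of the members, 1 was lower at an unadjusted p under 0.05 with no filter and with the filter for positive and significant signals (Cxcr2 both times, not well above background on any array), and 1 on slide 2 alone (Elane, which entered that fit only through naive 4, the single array that showed it well above background, so that a lower value in OUM was fixed by the filter). Neutrophil list genes higher at that threshold, 3 in the text, were 2 under the methods' t-test and on slide 1 alone, 5 in the value table, 6 after quantile normalization, normexp and array weights, 7 after a median shift, 10 on slide 2 alone and 3 to 9 with 1 array left out. Those lower, 0 in the text, were 1 with slide as a block, array weights and the positive and significant filter, 2 on slide 1 alone, 4 with no filter and on slide 2 alone, and 0 to 2 with 1 array left out. The share of higher calls among all probes was 43.9% in the text, 55.3% after quantile normalization, 54.1% with the percentile over detected probes, 57.7% in the value table and 62.1% after a median shift, while no scaling moved the median of all probes by over 0.1.

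The 15 correlations kept their side of the threshold in 55 of 60 alternative values. On slide 1 alone the r of Csf3r was not past it with S100a8 (0.459), S100a9 (0.419), Np4 (0.596), RatNP-3b (0.575) and Camp (0.543). Each member had 1 probe, so a second probe could not be tried. The replicate numbers of the labels do not pair the rats: same-numbered arrays had correlations of -0.08 to 0.31 in their deviations from the group means, and array 4 alone correlated best with its own number. With the replicate block the 6 differences were unchanged in size and 0 probes passed.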
